A study of Homo sapiens with 4 samples.

Results

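The chaperones and co-chaperones of the cytosol hold, fold and sort other proteins, and their mRNAs were examined here in human bronchial epithelial cells with and without a knockdown of QKI, an RNA-binding protein that regulates splicing. The genes were chosen by symbol: the HSPA and HSPH genes (the HSP70 and HSP110 proteins), the HSP90 genes, HSPD and HSPE (HSP60 and HSP10), the HSPB genes (small heat shock proteins), all DNAJ genes (the J-domain proteins), CCT2 to CCT8, BAG1 to BAG6 and the transcription factors HSF1 and HSF2. Left out were HSPA5, HSP90B1, DNAJB9, DNAJB11 and DNAJC3, which belong to the endoplasmic reticulum, and HSPBP1 and HSPBAP1. Of 16708 genes with a value in at least 1 library, 81 met this rule. The rule used no measured level. The word cytosolic holds for most but not all of these genes. At least 8 of the 81 encode mitochondrial proteins (HSPA9, HSPD1, HSPE1, DNAJA3, DNAJC11, DNAJC15, DNAJC19 and DNAJC30). At least 8 encode proteins of the endoplasmic reticulum (HSPA13, DNAJC1, DNAJC10, DNAJB12, DNAJB14, DNAJC16, DNAJC18 and DNAJC25). HSPB11 carries a heat shock symbol but is known as a subunit of the intraflagellar transport machinery of cilia.

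BEAS2B is a virus-transformed line of human bronchial epithelial cells, taken here at passages 15 to 18. It was infected with retroviruses carrying an shRNA against luciferase (control) or 1 shRNA against QKI (QKI-knockdown), and total RNA of 2 libraries per group was sequenced. The study asked which mRNAs and splicing events depend on QKI, and the comparison described below asks it of the chaperone mRNAs. Levels are given as RPKM, the reads of a gene scaled to its length and to the total reads of the library, so that levels of different genes can be set side by side. No source used here states that libraries of 1 group came from different cultures or are more than repeat runs of 1 RNA, so the p-values measure the spread between libraries only, which may be technical. Each group rests on 1 shRNA and 1 cell line. Since RNA was pooled over all cells of a culture, a lower level in every cell cannot be told apart from fewer cells carrying the mRNA.

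HSP70 proteins bind exposed hydrophobic stretches of unfolded clients in a cycle of ATP hydrolysis. J-domain proteins deliver clients and trigger hydrolysis, and nucleotide exchange factors such as HSP110 and the BAG proteins let the client go again. HSP90 takes over partly folded kinases and receptors, the CCT ring (also called TRiC) encloses actin, tubulin and other clients, small heat shock proteins keep unfolded proteins from clumping, and HSP60 with its lid HSP10 folds proteins inside mitochondria. When unfolded proteins accumulate, HSF1 binds heat shock elements, which are inverted repeats of the unit GAA, and raises transcription of the inducible members. HSPA1A, HSPA1B, HSPA6, DNAJB1, HSPH1, HSPB1 and BAG3 are classical members of that inducible set, whereas HSPA8 and HSP90AB1 are the constitutive forms present in unstressed cells.

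The pair of facing units that makes up the core of a heat shock element, GAANNTTC or TTCNNGAA, was searched in the RefSeq promoter sequences of build GRCh38.p14, from 250 bases before to 50 bases after each gene start. Only 1 promoter per gene was searched, the first one listed, so other starts of a gene were not covered. Each of these motifs reads the same on both strands, and where 3 alternating units follow each other the 2 motifs overlap. Of the 81 genes, 71 had a promoter in that table (all except BAG4, CCT6A, DNAJC1, DNAJC22, DNAJC24, HSF1, HSPA12B, HSPA14, HSPB11 and HSPB2), and 16 of them (22.5%) held at least 1 pair. Over all 27305 promoters of the table the share was 13.7%, and over the 8443 tested genes with a promoter it was 9.87%, beside 12 of 63 tested chaperone genes (19%). A run of 3 alternating units stood in 4 of the 71 promoters (5.63%) and in 0.487% of all promoters. The genes with such a run were HSPA8, HSPA6, DNAJA1 and DNAJB6. By family, pairs were found in 6 of 12 HSP70 and HSP110 promoters, in 3 of 5 small heat shock protein promoters, and in 1 of 24 DNAJC promoters. The following stretches are shown because they belong to the most abundant chaperone mRNA (HSPA8), to the inducible HSP70 genes whose levels are given below (HSPA1A, HSPA1B and HSPA6), to the inducible HSPB1, and to DNAJB6, which holds a run outside the HSP70 family. Each is written 5′ to 3′ on the strand of its gene with up to 15 bases on either side, and the capitals mark the paired units.
HSPA8, first run, at chr11:123062339-123062381 on the minus strand: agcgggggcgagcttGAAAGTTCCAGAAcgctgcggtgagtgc
HSPA8, second run, at chr11:123062164-123062206 on the minus strand: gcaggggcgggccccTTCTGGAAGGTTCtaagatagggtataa
HSPA1A, at chr6:31815422-31815459 on the plus strand: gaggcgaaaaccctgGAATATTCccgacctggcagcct
HSPA1B, at chr6:31827618-31827655 on the plus strand: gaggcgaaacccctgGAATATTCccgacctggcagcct
HSPA6, at chr1:161524451-161524493 on the plus strand: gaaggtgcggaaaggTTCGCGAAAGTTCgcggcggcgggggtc
HSPB1, at chr7:76302476-76302513 on the plus strand: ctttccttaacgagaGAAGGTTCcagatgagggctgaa
DNAJB6, at chr7:157336858-157336900 on the plus strand: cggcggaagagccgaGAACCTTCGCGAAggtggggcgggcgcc

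The pairs of HSPA1A and HSPA1B began at positions -106 and -105 relative to the gene start, and the 2 promoters were identical at 92.6% of 299 aligned bases. The same pair also lies in the promoter of HSPA1L, which is read from the opposite strand beside HSPA1A. The runs of HSPA8 began at -230 and -55, that of HSPA6 at -74, and that of DNAJB6 at -131. A match describes the letters of a window and is not evidence of HSF1 binding, and no binding was measured here. Of the 12 genes listed here as inducible, 5 (41.7%) held a pair. For BAG3, DNAJB1, HSP90AA1, HSPA4L, HSPD1, HSPE1 and HSPH1 neither motif occurred in the window. This says only that these letters are not in these 300 bases, and nothing about other starts of these genes.

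Before the chaperones are described, QKI itself was examined. QKI mRNA was 8.94 and 14.6 RPKM in control libraries 1 and 2, and 2.52 and 3.85 RPKM in QKI-knockdown libraries 1 and 2. Within replicate numbers 1 and 2 it was at 28.2% and 26.4% of control, a log2 difference of -1.64 and -1.80. limma called it only with the replicate number as a block (Benjamini-Hochberg adjusted p = 3.16e-33, and 1.00 without the block). The size of the p with the block rests on a variance pooled over genes. It does not measure the spread of QKI alone between these 4 libraries. Libraries of the same number resembled each other more than libraries of the same group: across 11829 tested genes, the deviations from the group means of same-numbered libraries had a correlation of 0.953. The totals recovered from the RPKM values were 20052951 and 20571555 reads for the libraries numbered 1, and 34706058 and 34862008 reads for those numbered 2. The number is therefore treated as a batch, and each comparison is given within it. According to the methods the RNA was sequenced in 2 separate runs, with reads of 50 and 75 nt, but no source used here states whether the numbers stand for these runs. Of 7 airway epithelial marker genes, 4 (KRT8, KRT18, KRT7 and EPCAM) reached 0.5 RPKM in all 4 libraries, while CDH1 stayed between 0.0260 and 0.181 RPKM and KRT5 had no value in any library. The summed level of the 7 was 683 and 216 RPKM in control and 649 and 255 RPKM in QKI-knockdown libraries. Of 10 marker genes of other cell types, 2 did so (CD68 and PDGFRB), and the summed level of the 10 was 25.5 and 27.6 RPKM in control and 23.0 and 24.7 RPKM in QKI-knockdown libraries.

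The chaperone mRNAs were abundant. The 81 genes together held 1.34% and 1.15% of the summed RPKM in control libraries 1 and 2, and 1.42% and 1.15% in QKI-knockdown libraries 1 and 2. The mean over all 4 libraries was at least 100 RPKM for 5 genes, at least 10 RPKM for 42 and at least 1 RPKM for 69. In order of mean level the first 5 were HSPA8 (398.9 RPKM), HSP90AB1 (306 RPKM), HSP90AA1 (278 RPKM), HSPB1 (157 RPKM) and DNAJA1 (122 RPKM). HSPA8 was first in every library. In build GRCh37, the same as hg19, the GENCODE annotation places HSPA8 at chr11:122928197-122933938, HSP90AB1 at chr6:44213903-44221625, HSP90AA1 at chr14:102547079-102606036, HSPB1 at chr7:75931990-75933612 and DNAJA1 at chr9:33025271-33039905. The order behind it was not stable: HSP90AA1 stood above HSP90AB1 in control library 2 and below it in the other 3, and HSPB1 was among the first 4 in both libraries numbered 1 but in neither library numbered 2. The levels of HSP90AB1 (from 241 to 386 RPKM) and HSP90AA1 (from 245 to 341 RPKM) overlapped, and so did those of DNAJA1 and HSPB1, so these neighbours did not differ beyond their spread. A mean under 0.5 RPKM left 10 of the 81 genes untested: CCT6B, DNAJB7, DNAJB13, DNAJC5G, HSPA6, HSPA12B, HSPB2, HSPB6, HSPB7 and HSPB9. Most of these are known from testis, muscle or heart rather than from airway cells.

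**Figure D1:**
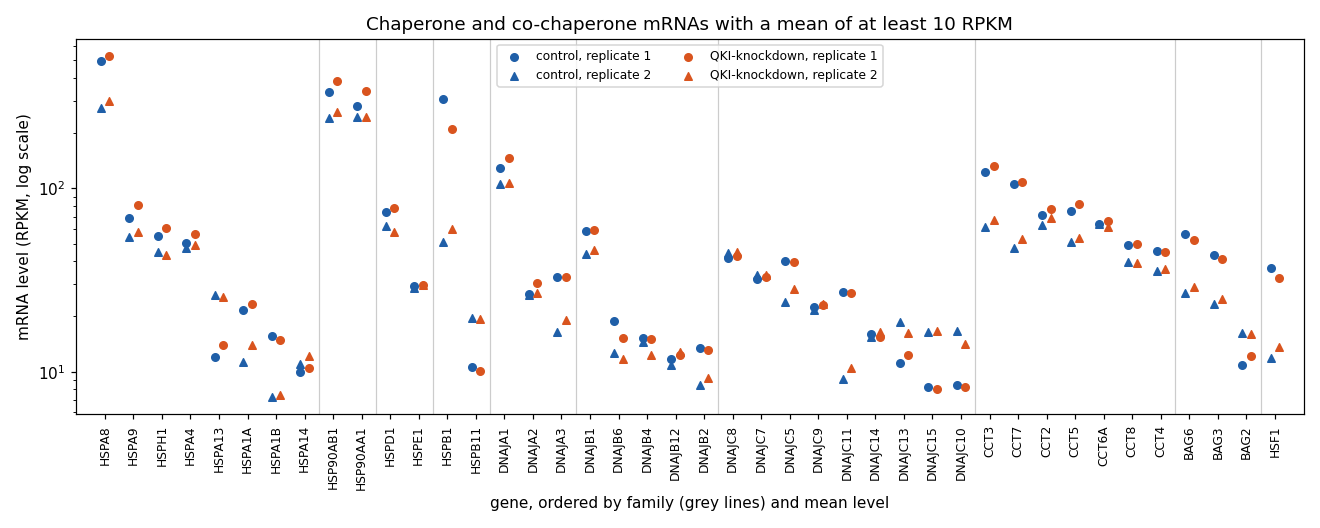
mRNA levels (RPKM, log scale) of the 42 chaperone and co-chaperone genes that averaged 10 RPKM or more, by family and then by mean level, with 1 point per library (blue, control; orange, QKI-knockdown; circles, replicate 1; triangles, replicate 2). For most genes the circles and the triangles lie further apart than the colours, most of all for HSPB1, whose circles are at 308 and 210 RPKM and whose triangles are at 50.7 and 59.7 RPKM.

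After QKI knockdown no chaperone or co-chaperone mRNA passed the test in any fit, and most differences were small. Of the 71 tested genes, limma without a block called 0 (0 at an unadjusted p under 0.05), beside 0% of all tested genes. With the replicate number as a block it called 0 higher, beside 0.490% of all tested genes, and 0 lower, beside 0.364%. In that fit 2 of the 71, DNAJC30 and HSPB8, had an unadjusted p under 0.05, and the lowest Benjamini-Hochberg adjusted p of the 71 was 0.784. Voom of limma on reads recovered from the RPKM values, with the same block, also called 0 of the 71 (2 at an unadjusted p under 0.05, DNAJB5 and DNAJB6; lowest adjusted p 0.490). No gene of the 71 was over 2-fold higher or lower in group means, beside 0.135% and 0.228% of all tested genes. The shares were 0.234% and 0.335% of the 11955 genes that averaged 0.5 RPKM or more in at least 1 group. A shift of at least 1.2-fold in the same direction within both replicate numbers was found for 0 of the 71 in either direction, beside 1.63% of all tested genes upwards and 1.30% downwards. The background shares are themselves close to 0, so these zeros do not set the chaperones apart from other genes.

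Intervals describe the size of the differences, but do not bound it gene by gene. With the block, the 95% intervals of limma for all 71 genes lay inside a 2-fold difference, between a log2 of -0.62 and 0.65. Their standard errors ran from 0.12 to 0.16, since limma then relied almost wholly on a variance pooled over genes. For HSPB1 the interval, -0.39 to 0.077, held neither of its differences within the numbers, -0.55 and 0.23. Without the block the standard errors ran from 0.24 to 1.19, since the difference between the replicate numbers then counts as error. In the voom fit with the block, which adds no 0.5 RPKM, the intervals of 2 genes with low levels reached past 2-fold, from -1.05 to 0.11 for DNAJC12 and from -0.053 to 1.11 for HSPB8. The mean log2 difference, QKI-knockdown minus control on the log2(RPKM + 0.5) scale, ran from -0.30 (DNAJC12) to 0.33 (HSPB8), and 68 of 71 genes (95.8%) were within 1.2-fold, beside 93.1% of all tested genes. The median was 0.049 for the 71 and 0.033 for all tested genes. Within replicate 1 the medians were 0.056 and 0.020, and within replicate 2 they were 0.055 and 0.045. Of the 71, 31 (43.7%) were higher within both numbers, at any size, beside 31.7% of all tested genes, 10 (14.1%) were lower within both, beside 16.6%, and 30 had opposite signs. This split depends on the scaling: with each library centred on the median of the tested genes, 21 of the 71 (29.6%) were higher and 13 (18.3%) lower within both numbers, beside 22.9% and 23.3% of all tested genes, and the median of the 71 was 0.015. Both QKI-knockdown libraries stood above both control libraries for 4 of the 71 (DNAJA2, DNAJB12, DNAJC9 and HSPE1), beside 5.71% of all tested genes, and below them for 1 (DNAJC1), beside 2.89%. A difference of at least 1.2-fold within 1 number alone was seen for 14 genes, 11 in replicate 1 (5 higher and 6 lower) and 3 in replicate 2 (all higher). These were 15.5% and 4.23% of the 71. Of all tested genes 15.3% and 16.7% had such a difference in replicates 1 and 2, counting also genes that had it in both.

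**Figure D2:**
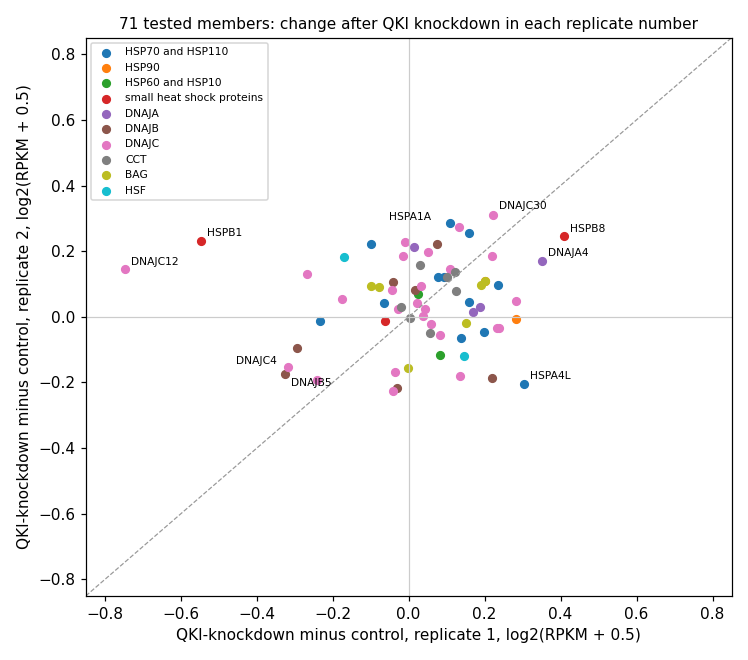
Log2 difference of QKI-knockdown minus control, on the log2(RPKM + 0.5) scale, within replicate 1 (x axis) and within replicate 2 (y axis) for the 71 tested genes, coloured by family, with the dashed line marking equal values. The points gather around 0 on both axes. HSPB1 (-0.55 and 0.23) and DNAJC12 (-0.75 and 0.14) had opposite signs on the 2 axes, whereas HSPB8 (0.41 and 0.25) and DNAJB5 (-0.32 and -0.17) had the same sign on both.

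HSF1, the factor that switches on the heat shock response, was 36.7 and 11.9 RPKM in control and 32.6 and 13.6 RPKM in QKI-knockdown cells. HSF2, a related factor that can form trimers with HSF1, was 4.73 and 11.0 RPKM in control and 5.28 and 10.1 RPKM in QKI-knockdown cells. The groups overlapped for both genes, with mean log2 differences of 0.0065 and 0.014. The 2 factors differed from each other in another way: HSF1 was lower and HSF2 higher in the libraries numbered 2, in both groups. HSF1 mRNA level does not report the activity of the protein, which is set after translation.

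HSF1 activity was not measured here. HSF1 can raise transcription of the inducible genes, and 12 members were listed as such. Of these, 11 were tested and 0 were called in any fit, where the block called 0.490% of all tested genes higher and 0.364% lower. Within both numbers 4 (36.4%) were higher and 0 lower, beside 31.7% and 16.6% of all tested genes, and 7 had opposite signs. After median centring 1 (9.09%) was higher and 0 lower, beside 22.9% and 23.3%. Their median log2 difference was 0.047 (0.013 after centring), beside 0.033 over all tested genes, and the differences ranged from -0.16 for HSPB1 to 0.20 for HSPA1A. HSPA1A, the main stress-induced HSP70, was 21.7 and 11.3 RPKM in control and 23.5 and 13.9 RPKM in QKI-knockdown cells. It was higher than control within both numbers, by a log2 of 0.11 and 0.29, while the groups overlapped (limma with the block, 95% interval -0.036 to 0.43). Its near-identical neighbour HSPA1B was 15.7 and 7.26 RPKM in control and 15.0 and 7.48 RPKM in QKI-knockdown cells, with differences of -0.066 and 0.041. The 2 genes encode the same protein and share most of their sequence: 75.1% of the 50-base stretches of the HSPA1A transcript and 71.6% of those of HSPA1B occur elsewhere in the genome as exact copies. Since the authors left out reads with more than 1 alignment, the levels of both rest on the remaining stretches and are uncertain, as is the ratio of HSPA1A to HSPA1B (from 1.38 to 1.86).

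HSPA6, an HSP70 known to be nearly silent outside severe stress, was listed at 0.383 and 0.0418 RPKM in control and at 0.313 and 0.0773 RPKM in QKI-knockdown cells. It was under 0.5 RPKM in all 4 libraries, and 56.1% of its 50-base stretches occur elsewhere. DNAJB1, the J-domain partner induced together with HSP70, was 58.8 and 43.7 RPKM in control and 59.4 and 46.3 RPKM in QKI-knockdown cells. HSPA4L, an HSP110 relative, was 5.13 and 6.25 RPKM in control and 6.45 and 5.36 RPKM in QKI-knockdown cells. The order of its groups turned with the replicate number, with log2 differences of 0.30 and -0.20.

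In the HSP70 and HSP110 family, 12 of 14 genes were tested. Within both numbers 6 (50%) were higher and 1 (8.33%) lower, also after median centring. Of all tested genes 31.7% were higher and 16.6% lower (22.9% and 23.3% after centring). The median log2 difference of the family was 0.088 (0.054 after centring). HSPA8, the constitutive HSP70 that also strips clathrin from vesicles, was 495 and 275 RPKM in control and 527 and 299 RPKM in QKI-knockdown cells. It was higher within both numbers by a log2 of 0.092 and 0.12, and the libraries numbered 1 were about as far above those numbered 2 in both groups (1.80 and 1.76 times). Of its 50-base stretches 23.5% occur elsewhere in the genome. HSPA8 exceeded HSPA1A by 22.8 and 24.2 times in control and by 22.5 and 21.4 times in QKI-knockdown libraries. These ratios are uncertain, as is the level of HSPA1A. HSPA9, the mitochondrial HSP70 that pulls precursor proteins into the matrix, was 69.3 and 54.1 RPKM in control and 81.5 and 57.9 RPKM in QKI-knockdown cells, which was a log2 of 0.23 and 0.10 within the numbers. The nucleotide exchange factor HSPH1 (HSP110) was 55.2 and 45.1 RPKM in control and 60.8 and 43.1 RPKM in QKI-knockdown cells, with opposite signs within the numbers. HSPA12A, a distant HSP70 relative, had the highest difference of the family, 0.21, at 1.33 and 0.995 RPKM in control and 1.55 and 1.29 RPKM in QKI-knockdown cells. HSPA2, which is known from the testis, had the lowest, -0.12, at 3.30 and 2.40 RPKM in control and 2.73 and 2.37 RPKM in QKI-knockdown cells. The groups overlapped for each of these 5 genes.

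Most BAG proteins bind HSP70 through their BAG domain and release its nucleotide. All 6 BAG genes were tested, with 2 (33.3%) higher and 1 (16.7%) lower within both numbers, also after median centring. Of all tested genes 31.7% were higher and 16.6% lower (22.9% and 23.3% after centring). The median log2 difference of the BAG genes was 0.036 (0.0023 after centring). BAG6, which escorts hydrophobic proteins, was 56.1 and 27.0 RPKM in control and 52.4 and 28.9 RPKM in QKI-knockdown cells. BAG3, the stress-induced member that links HSP70 and small heat shock proteins to autophagy, was 43.3 and 23.3 RPKM in control and 40.9 and 24.9 RPKM in QKI-knockdown cells. Both were lower than control within replicate 1 and higher within replicate 2, by a log2 of -0.10 and 0.094 for BAG6 and of -0.079 and 0.092 for BAG3. BAG4 was 4.09 and 6.72 RPKM in control and 4.77 and 7.29 RPKM in QKI-knockdown cells, the highest difference of the family at 0.16. BAG1, named for its binding to BCL2, had the lowest at -0.078, with 10.2 and 5.74 RPKM in control and 10.2 and 5.10 RPKM in QKI-knockdown cells.

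J-domain proteins choose the client and the place for HSP70, and they were the most numerous members. All 4 DNAJA genes were tested and all 4 were higher within both numbers, beside 31.7% of all tested genes, with a median log2 difference of 0.11, but after median centring only 1 of the 4, DNAJA4, was. DNAJA1, a farnesylated partner of HSPA8, was 129.5 and 106 RPKM in control and 146 and 107 RPKM in QKI-knockdown cells, with differences of 0.17 and 0.014. DNAJA2 was 26.6 and 26.3 RPKM in control and 30.4 and 26.9 RPKM in QKI-knockdown cells, where the groups did not overlap but differed by a log2 of only 0.11 (limma with the block, 95% interval -0.12 to 0.34). DNAJA4 had the highest difference of the 4, 0.26, with 4.59 and 1.89 RPKM in control and 5.99 and 2.19 RPKM in QKI-knockdown cells. Its difference was 0.35 in replicate 1 and 0.17 in replicate 2, and the block interval of limma, -0.022 to 0.54, included 0.

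Of the 9 DNAJB genes, 7 were tested, with 2 (28.6%) higher and 3 (42.9%) lower within both numbers (1 and 3 after median centring). Of all tested genes 31.7% were higher and 16.6% lower (22.9% and 23.3% after centring). The median log2 difference of the DNAJB genes was 0.016 (-0.018 after centring). DNAJB6, which keeps polyglutamine proteins from aggregating, was 18.8 and 12.6 RPKM in control and 15.3 and 11.8 RPKM in QKI-knockdown cells. DNAJB5 was 5.21 and 6.75 RPKM in control and 4.06 and 5.93 RPKM in QKI-knockdown cells. Copies elsewhere in the genome cover 26.0% of the 50-base stretches of DNAJB6. Both genes were lower within both numbers, DNAJB6 by a log2 of -0.29 and -0.093 and DNAJB5 by -0.32 and -0.17, and the groups overlapped. These 2 genes had an unadjusted p under 0.05 in the voom fit with the block, with Benjamini-Hochberg adjusted p of 0.725 (DNAJB6) and 0.490 (DNAJB5). DNAJB12, a J-domain protein of the endoplasmic reticulum membrane, was 11.7 and 10.9 RPKM in control and 12.4 and 12.7 RPKM in QKI-knockdown cells. Its groups did not overlap, at a mean log2 difference of 0.15.

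The DNAJC genes share the J domain but little else, and act at many sites. Of 27, 26 were tested, with 10 (38.5%) higher and 4 (15.4%) lower within both numbers (6 and 5 after median centring). Of all tested genes 31.7% were higher and 16.6% lower (22.9% and 23.3% after centring). The median log2 difference of the DNAJC genes was 0.026 (-0.0081 after centring). The most abundant was DNAJC8, a spliceosome-associated protein, at 41.4 and 44.4 RPKM in control and 42.7 and 45.2 RPKM in QKI-knockdown cells. DNAJC7, which binds both HSP70 and HSP90, was 31.9 and 33.7 RPKM in control and 32.8 and 33.8 RPKM in QKI-knockdown cells. These levels lay within a narrow band in all libraries. DNAJC30, a mitochondrial protein, had the highest difference of the family. It was 7.60 and 4.77 RPKM in control and 8.95 and 6.02 RPKM in QKI-knockdown cells, higher by a log2 of 0.22 and 0.31 within the numbers. The 95% interval of limma with the block was 0.0055 to 0.53, and the Benjamini-Hochberg adjusted p was 0.784. DNAJC12, a co-chaperone of the aromatic amino acid hydroxylases, had the lowest difference of all 71 genes at -0.30, which rests on 1 library. The value depends on the processing: it was -0.61 with a pseudocount of 0.1 RPKM, -0.18 with 1 RPKM, -0.78 with voom and -0.47 with voom and the block. It was 0.629 and 0.960 RPKM in control and 0.173 and 1.11 RPKM in QKI-knockdown cells. QKI-knockdown library 2 stood above both control libraries.

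HSP90 works downstream of HSP70 on kinases and steroid receptors. HSP90AB1, the constitutive form, was 336 and 241 RPKM in control and 386 and 259.8 RPKM in QKI-knockdown cells. The inducible form HSP90AA1 was 280.2 and 246 RPKM in control and 341 and 245 RPKM in QKI-knockdown cells. HSP90AB1 was higher within both numbers, by a log2 of 0.20 and 0.11, and HSP90AA1 within replicate 1 alone, by 0.28 and -0.0055. The ratio of HSP90AB1 to HSP90AA1 was 1.2 and 0.981 in control and 1.13 and 1.06 in QKI-knockdown libraries. The listed levels of the 2 forms were thus nearly equal throughout. Of their 50-base stretches 21.9% (HSP90AB1) and 22.1% (HSP90AA1) occur elsewhere in the genome, so this ratio is uncertain.

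The CCT ring is built of 8 different subunits in equal number, of which CCT2 to CCT8 were members by the rule, TCP1 being the other. All 7 subunits of the ubiquitous ring were tested (CCT6B, the testis form, was not). Within both numbers 4 (57.1%) were higher and 0 lower (3 and 2 after median centring). Of all tested genes 31.7% were higher and 16.6% lower (22.9% and 23.3% after centring). The median log2 difference of the 7 was 0.094 (0.060 after centring). CCT3 was 123 and 61.8 RPKM in control and 132 and 67.3 RPKM in QKI-knockdown cells. CCT2 had the highest difference of the family, 0.13, with 71.3 and 62.8 RPKM in control and 77.6 and 69.0 RPKM in QKI-knockdown cells. CCT8 had the lowest, -0.00093, with 49.4 and 39.4 RPKM in control and 49.5 and 39.3 RPKM in QKI-knockdown cells. The 7 subunits spanned a band of levels within each library. CCT4 was the lowest in all 4, and the highest exceeded it by 2.69 and 1.79 times in control and by 2.93 and 1.90 times in QKI-knockdown libraries. The band was wider in the libraries numbered 1, where CCT3 was the highest, than in those numbered 2. TCP1 lay inside it at 81.5 and 51.1 RPKM in control and 81.5 and 54.2 RPKM in QKI-knockdown cells.

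HSP60 (HSPD1) and HSP10 (HSPE1) form the chaperonin of the mitochondrial matrix and are transcribed from opposite strands of a shared promoter. HSPD1 was 73.8 and 62.4 RPKM in control and 78.2 and 57.5 RPKM in QKI-knockdown cells. HSPE1 was 29.3 and 28.4 RPKM in control and 29.8 and 29.9 RPKM in QKI-knockdown cells, the narrowest range, in proportion to its level, of the 42 genes at 10 RPKM or more. The HSPE1 groups did not overlap, at a mean log2 difference of 0.047 that falls to 0.013 after median centring. HSPD1 exceeded HSPE1 by 2.52 and 2.19 times in control and by 2.63 and 1.93 times in QKI-knockdown libraries. Copies elsewhere in the genome cover 37.3% of the 50-base stretches of HSPD1 and 25.1% of those of HSPE1, so this ratio is uncertain.

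Of the 7 HSPB genes, 3 were tested: HSPB1, HSPB8 and HSPB11, which belongs to the small heat shock proteins by symbol only. HSPB1 (HSP27), which binds unfolded proteins and actin filaments, was 308 and 50.7 RPKM in control and 210.5 and 59.7 RPKM in QKI-knockdown cells. It was lower than control within replicate 1 and higher within replicate 2, by a log2 of -0.55 and 0.23, the groups overlapped, and the spread between the numbers was 6.06-fold in control and 3.53-fold in QKI-knockdown cells. HSPB8, which works with BAG3, was 0.809 and 0.376 RPKM in control and 1.24 and 0.539 RPKM in QKI-knockdown cells. It was higher within both numbers, by a log2 of 0.41 and 0.25, the highest mean difference of all 71 genes at 0.33. The 95% interval of limma with the block was 0.0058 to 0.65 and the Benjamini-Hochberg adjusted p was 0.788. At these low levels the difference depends on the pseudocount: with 0.1 RPKM in place of 0.5, HSPB8 is the 1 gene of the 71 that passes 1.2-fold within both numbers. Its mean difference was then 0.49, and 0.52 with voom, smaller in size than that of DNAJC12 in the same fits. HSPB11 was 10.6 and 19.5 RPKM in control and 10.1 and 19.4 RPKM in QKI-knockdown cells, near equal between groups within each number.

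Genes outside the rule that belong to or work with these chaperones were examined as a list of 30. Among them were the HSP90 co-chaperones, prefoldin, TCP1, HSPBP1 and CRYAB. All 30 were tested and 0 were called in any fit, with 12 higher and 1 lower within both numbers (6 and 4 after median centring), 0 shifted by 1.2-fold within both, and a median log2 difference of 0.053 (0.019 after centring). CDC37, which brings kinases to HSP90, was 178 and 60.0 RPKM in control and 169 and 68.5 RPKM in QKI-knockdown cells. PFDN2, a prefoldin subunit that hands actin and tubulin to the CCT ring, was 145 and 67.3 RPKM in control and 163 and 71.1 RPKM in QKI-knockdown cells. PTGES3 (p23), which steadies HSP90 in its closed form, was 75.4 and 146 RPKM in control and 77.9 and 142 RPKM in QKI-knockdown cells. Groups overlapped for all 3 genes, and the replicate numbers separated them, in the opposite direction for PTGES3.

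The chaperone mRNAs, like the tested genes as a whole, differed far more between the replicate numbers than between the groups. Over the 71 genes, the log2 difference of replicate 2 minus replicate 1 had an SD of 0.79 in control and 0.71 in QKI-knockdown cells, whereas the difference of QKI-knockdown minus control had an SD of 0.20 within replicate 1 and 0.14 within replicate 2. Over all tested genes the SDs were 0.81 and 0.66 between the numbers, and 0.20 and 0.21 between the groups. The deviations of same-numbered libraries from their group means had a correlation of 0.959 over the 71 genes. More than 2-fold lower in replicate 2 in both groups were 5 genes (7.04%, beside 6.33% of all tested genes): CCT7, DNAJA4, DNAJC11, HSF1 and HSPB1. More than 2-fold higher were 2 (2.82%, beside 4.74%), DNAJC28 and DNAJC25-GNG10. Of the 30 partners, 9 were more than 2-fold lower (30%) and 1, VBP1, was more than 2-fold higher. DNAJC11, a mitochondrial protein linked to the shape of the cristae, was 27.1 and 9.13 RPKM in control and 26.8 and 10.4 RPKM in QKI-knockdown cells. CCT7 was 106 and 47.5 RPKM in control and 108 and 53.0 RPKM in QKI-knockdown cells. DNAJC25-GNG10, a readthrough gene that overlaps DNAJC25 and GNG10, was 2.24 and 15.6 RPKM in control and 2.72 and 15.2 RPKM in QKI-knockdown cells, and its reads cannot be told apart from those of its neighbours. DNAJC28 was 0.760 and 2.26 RPKM in control and 0.567 and 1.91 RPKM in QKI-knockdown cells. For each of these genes both libraries of a number lay on the same side of both libraries of the other.

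**Figure D3:**
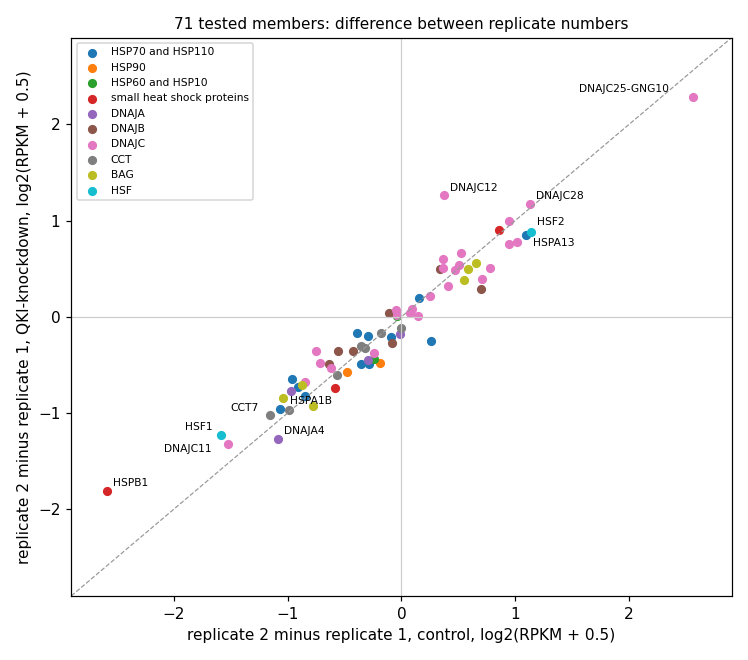
Log2 difference of replicate 2 minus replicate 1, on the log2(RPKM + 0.5) scale, plotted for control (x axis) against QKI-knockdown (y axis) libraries for the 71 tested genes, coloured by family, with the dashed line marking equal values. The points follow the dashed line, from HSPB1 (-2.59 and -1.81) to DNAJC25-GNG10 (2.56 and 2.29).

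The difference between the replicate numbers went with the base composition of the mRNA. Across the 71 genes, which share the same 4 libraries, Pearson's r between the GC content of the longest coding transcript and the difference of replicate 2 minus replicate 1 was -0.69 in control and -0.59 in QKI-knockdown cells, beside -0.72 and -0.64 across 11418 tested genes with a transcript. Of 13 genes with over 55% GC, among them HSPB1, HSF1, BAG3, HSPA1A and HSPA1B, all 13 were lower in replicate 2 in control cells, with a median log2 difference of -0.88. Of 38 genes with under 45% GC, 15 were lower, and the median was 0.31. The difference between QKI-knockdown and control also went with GC content, in opposite directions within the numbers. Its median within replicate 1 was 0.096 under 45% GC, 0.066 from 45% to 55% and -0.066 over 55%, and within replicate 2 it was 0.0046, 0.11 and 0.13. All 13 genes with over 55% GC had a higher difference in replicate 2 than in replicate 1, beside 86.8% of all tested genes of that range, and 13 of the 38 under 45% GC did (34.2%), beside 23% of all tested genes of that range. In the mean over both numbers, on which the comparison above rests, the medians were 0.042, 0.11 and 0.0065. The part of base composition in the difference between the numbers was not tested.

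**Figure D4:**
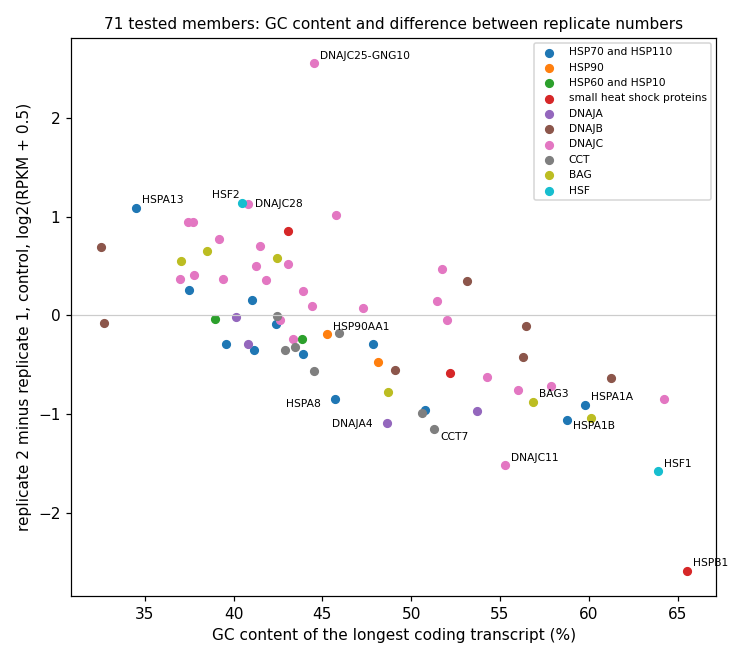
GC content of the longest coding transcript (percent, x axis) and log2 difference of replicate 2 minus replicate 1 in control cells, on the log2(RPKM + 0.5) scale (y axis), for the 71 tested genes, coloured by family. The 13 genes over 55% GC all lie below 0, down to HSPB1 at 65.5% GC and -2.59.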

How the data were processed

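RNA-Seq of 4 BEAS2B libraries was used, 2 control and 2 QKI-knockdown, grouped by their labels. The authors deposited 1 table of RPKM values for each library. According to the methods, single-end reads of 50 and 75 nt were aligned with Bowtie (no version is stated), allowing 3 mismatches, to hg19 (the build in the submitters' processing notes) and to the junctions of Ensembl protein-coding genes, and ambiguous reads were excluded. Genes missing from a table were set to 0. RPKM values are whole multiples of what 1 read is worth: with a relative tolerance of 1e-11, 100% of 61702 values came out as whole reads. These reads sum to between 1.35 and 1.53 times the library totals, so a read may have entered more than 1 gene or transcript, and no counting intervals are given.

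Genes averaging 0.5 RPKM or more were tested two-sided on log2(RPKM + 0.5) by limma 3.58.1 (R 4.3.3, trended variance), and p-values were adjusted over all 11829 tested genes by Benjamini-Hochberg (threshold 0.05). Fold differences on this scale understate those of low genes. An exact permutation test of 2 against 2 libraries cannot go below p = 0.333 and was not used. The fits were tested on simulated data. The alternatives were pseudocounts of 0.1 and 1 RPKM, no limit and a limit of 2 RPKM, median centring, the replicate number as a block, voom on the recovered reads, and leaving out each library in turn. Same-numbered libraries deviated together (correlation 0.953), but only 2 pairs exist and no shared culture is stated, so the block is given as an alternative.

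Genes were named by rule: QKI, genes called or shifted in any fit, HSF1, HSF2, the inducible genes and the 3 most abundant partners. In each family the rule took the 2 most abundant genes and the tested genes with the highest and the lowest log2 difference. It also took the genes with the 3 largest and the 3 smallest differences between replicate numbers. Any other gene named was chosen after its values were seen. The members and lists were chosen with earlier results of these data known. GC content, and the share of 50-base stretches found as exact copies elsewhere, come from GRCh37 and the longest coding transcript of each gene. Promoters are those of RefSeq. Python 3.11.15 with numpy 2.4.6, pandas 2.3.3, scipy 1.17.1 and matplotlib 3.10.9 was used.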

Additional observations from a re-analysis of the deposited data

How the results depend on the processing

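No chaperone or partner was called higher or lower under any alternative. The log2 difference of QKI passed the threshold with the replicate block (-1.72), with the block and median centring (-1.75) and with voom and the block (-1.91), and in no fit without the block. With the number as a block, a pairing that the design does not state, no call of a chaperone or partner changed. Over all tested genes that fit called 58 higher and 43 lower, beside 0 without the block. No limit on low values gave 2 chaperones over 2-fold higher in group means (DNAJC5G and HSPB7, each listed in 3 libraries), and a pseudocount of 0.1 RPKM gave 1 shifted upwards within both numbers (HSPB8). Leaving out 1 library at a time unbalanced the replicate numbers. Chaperones over 2-fold higher then numbered from 0 to 4 (4 without control replicate 1: DNAJA4, DNAJC11, HSPB1 and HSPB8) and those over 2-fold lower from 0 to 3 (3 without QKI-knockdown replicate 2: DNAJC12, DNAJC25-GNG10 and DNAJC28). HSPB1 was over 2-fold higher without control replicate 1 and over 2-fold lower without control replicate 2 or QKI-knockdown replicate 1. The median log2 difference ran from -0.044 to 0.11 for the chaperones and from -0.27 to 0.32 for the partners. Shifts within both numbers cannot be counted with a library left out. Of the 42 named genes with a value, 6 took the other sign with median centring and 9 with voom and the block, and between 12 and 22 with 1 library left out. The cause of these changes beyond the unbalanced numbers was not tested. With 2 libraries per group, a log2 difference of 0.33 (HSPB8) did not pass the threshold even with the block, so smaller differences at its level would not have been called.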
